A study of Mus musculus with 12 samples.

Results

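The genes described here are 8 mouse genes of mitochondrial transport and of the passage of mitochondria between cells: Rhot1, Rhot2, Trak1, Trak2, Gja1, Cd38, Tnfaip2 and Myo10. They were found by their Ensembl identifiers in both tables of raw gene counts, where each of the 8 was 1 row among 55487 genes, and their levels were followed over all 12 libraries. All 8 passed the filter on low counts in both experiments, in which 16768 and 20499 genes were tested.

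Mitochondria travel along microtubules. Rhot1 and Rhot2 encode the Miro GTPases of the outer mitochondrial membrane, and Trak1 and Trak2 encode the adaptors that couple Miro to kinesin and dynein motors. Tnfaip2 (M-Sec) drives the growth of tunneling nanotubes together with Ral GTPases and the exocyst, and Myo10 is an unconventional myosin that gathers at filopodium tips. Gja1 encodes a connexin, the subunit of gap junction channels, and Cd38 encodes an ectoenzyme that consumes NAD and forms cyclic ADP-ribose. In bone marrow, gap junctions and membrane protrusions are described routes by which mitochondria pass between stromal and blood-forming cells.

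The first experiment used bone marrow macrophages (BMMs), grown for 72 h from the leg bones of female C57BL/6 mice with 50 ng/mL M-CSF, the growth factor that drives macrophage formation. The mice had undergone ovariectomy (OVX, 3 libraries), which removes the main source of estrogen, or a sham operation (sham, 3 libraries). The second used passage 3 mesenchymal stem cells (MSCs) from tibias and femurs of C57BL/6 mice, cultured alone (MSC, 2 libraries) or in transwells with RAW264.7, a mouse macrophage line, on the other side of the membrane. The RAW264.7 cells were untreated for the group MSC+RAW-TW (2 libraries) and had received lipopolysaccharide, a bacterial cell wall component that activates macrophages, for the group MSC+RAW-LPS-TW (2 libraries). The labels give an age of 8 weeks for all samples. No label says whether libraries of a group came from separate animals or cultures, so p-values measure the spread between these libraries, which may be technical.

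Libraries held between 17012923 and 45367105 counts. Sham replicates 2 and 3 differed by little more at high counts than at low counts (chi-square over its sampling value, median 2.80 and 2.63), and so did both MSC+RAW-TW libraries (3.34 and 3.07), while the other pairs within a group reached 26.8 to 185 at high counts. Each of these 2 pairs was summed and counted as 1 sample, so n = 3 for OVX, 2 for sham, 2 for MSC, 1 for MSC+RAW-TW and 2 for MSC+RAW-LPS-TW. With 1 sample, MSC+RAW-TW has no SD and was assumed to vary like the other MSC groups. The headers number the MSC+RAW-TW and MSC+RAW-LPS-TW libraries otherwise than the labels do, so these libraries are called a and b. Libraries also differed in a trend of level on the GC content of genes. Its Spearman correlation, taken across genes on log2 CPM relative to each gene's mean, was -0.598 to -0.326 in OVX and 0.221 to 0.517 in sham. It was -0.302 to -0.231 in MSC, 0.394 to 0.397 in MSC+RAW-TW and -0.280 to -0.137 in MSC+RAW-LPS-TW.

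The libraries labelled MSC did not show the marker pattern of stromal cells alone. All 18 macrophage markers were at 1 CPM or more in every library, and their summed level was 33052 to 33118 CPM in MSC, 42296 to 42936 in MSC+RAW-TW and 17065 to 17792 in MSC+RAW-LPS-TW. Most of each sum was Lyz2, the lysozyme gene (21746 to 21829, 26109 to 26546 and 9168 to 9956 CPM), and single markers went both ways. Adgre1, which encodes a macrophage surface receptor, was at 517 to 585 CPM in MSC, 331 to 335 in MSC+RAW-TW and 1397 to 1538 in MSC+RAW-LPS-TW, whereas Mrc1, the mannose receptor gene, was at 589.7 CPM or more in MSC and 3.998 or less in MSC+RAW-LPS-TW. The 16 stromal markers summed to 3014 to 3152, 2414 to 2435 and 4447 to 4559 CPM, and 14, 15 and 13 of them were at 1 CPM or more in every library of the group. None of the 16 was at 0, but Thy1, a surface protein by which MSCs are recognised, was at 0.539 CPM or less in MSC and MSC+RAW-LPS-TW and at 2.14 CPM or less in MSC+RAW-TW. Ptprc, which encodes the pan-leukocyte protein CD45, reached 172 CPM in MSC, 93.5 in MSC+RAW-TW and 228 in MSC+RAW-LPS-TW. Neutrophil markers summed to 11.8 to 34.5 CPM in MSC and MSC+RAW-TW and to 370 to 554 in MSC+RAW-LPS-TW, of which S100a8 made up 342 to 514, and S100a9 was at 0.0601 CPM or less in these libraries. Endothelial markers summed to 37.5 to 48.3 CPM and lymphocyte markers to 1.03 CPM or less over these libraries. In BMMs the macrophage markers summed to 49017 to 53509 CPM in OVX and 63661 to 71845 in sham, and the stromal markers to 8737 to 9647 and 7443 to 8410. Lyz2 again made up most of the macrophage sum (36579 to 40925 CPM in OVX, 46743 to 52514 in sham). Of the 18 markers 12, among them Spi1 (214 to 285 against 606 to 763 CPM), were lower in every OVX library than in every sham library. The 2 that were higher were Mrc1 (177 to 253 against 48.0 to 51.3) and Ptprc (107 to 161 against 69.1 to 88.4). Of the 16 stromal markers 6 were higher and 3 lower in the same way. The share of all genes that part in this way is not given here. Neutrophil markers there summed to 1215 to 1351 CPM in OVX and 822 to 912 in sham, endothelial markers to 19.0 to 23.6 over both groups, and lymphocyte markers to 10.2 or less in OVX and 23.7 or less in sham. In bulk libraries, fewer cells of a type and less RNA per cell cannot be told apart. The part of these markers in the differences given here was not tested.

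On GRCm38, Rhot1 lies at chr11:80209019-80267907 (+), Trak2 at chr1:58900449-58973430 (-) and Gja1 at chr10:56377330-56402513 (+), and no other annotated gene overlaps them. Cd38 lies at chr5:43868553-43912375 (+), Tnfaip2 at chr12:111442469-111455018 (+), Trak1 at chr9:121297502-121474918 (+) and Myo10 at chr15:25622525-25813673 (+). The genes that overlap these 4 were at 3.70 CPM or less in every library. Rhot2, at chr17:25838457-25844851 (-), overlaps 3 annotated genes. Gm20683, a protein-coding gene on the same strand, was at 0 counts in all 12 libraries, and Wdr90, also on the same strand, was at 1.47 to 5.89 CPM. The strand setting of the counting is not stated, so reads that Rhot2 shares with these genes may have been dropped or assigned to another gene, and its counts are uncertain.

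Sequence before the RefSeq start (GRCm38.p6) is shown for 3 of the members whose level differed in MSC+RAW-LPS-TW, Gja1, Myo10 and Tnfaip2. Letters run 5′ to 3′ on the strand of the gene, and capitals mark a match to the AP-1 motif (TGANTCA) or the NF-kB motif, searched on both strands. Gja1 and Myo10 are shown up to the RefSeq start or the first annotated exon base, whichever comes first. Tnfaip2 is shown over the 30 bases around its match, which lie inside the gene as GENCODE annotates it.
Gja1, chr10:56377050-56377299 (+): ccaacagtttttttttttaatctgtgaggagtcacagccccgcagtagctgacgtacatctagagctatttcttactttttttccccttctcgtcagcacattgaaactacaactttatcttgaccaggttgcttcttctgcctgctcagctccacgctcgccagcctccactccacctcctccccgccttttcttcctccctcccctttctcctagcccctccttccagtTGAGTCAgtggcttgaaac
Myo10, chr15:25622300-25622524 (+): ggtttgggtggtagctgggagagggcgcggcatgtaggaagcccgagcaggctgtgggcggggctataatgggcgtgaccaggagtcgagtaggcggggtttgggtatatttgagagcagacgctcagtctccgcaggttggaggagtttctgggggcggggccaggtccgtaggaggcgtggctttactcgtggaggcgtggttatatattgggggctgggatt
Tnfaip2, chr12:111442627-111442656 (+): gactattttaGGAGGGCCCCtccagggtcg
The Gja1 match lies 19 to 13 bases before the start and the Tnfaip2 match 24 to 15 bases before it, on the minus strand. Of 32851 RefSeq promoter windows of 250 bases, 6.75% held the AP-1 motif and 7.25% the NF-kB motif. Gja1 was the only member with the first and Tnfaip2 the only one with the second. The window of Cd38, at chr5:43868559-43868808 (+), and that of Rhot2, at chr17:25844526-25844775 (-), are not shown since they lie inside the genes as GENCODE annotates them. Neither held either motif, and they held 1 and 12 CpG, against a median of 6 over all windows. Of the other 8 motifs searched, GAS (TTCNNNGAA, 7.02% of windows) was found in Trak2. Trak1 has 4 windows and Myo10 has 2, 1 for each annotated start, and the other members have 1. CRE (TGACGTCA, 1.55%) was found in the window of Trak1 farthest downstream, and the TATA box (TATAAA, 12.4%) in the downstream window of Myo10, chr15:25752956-25753205 (+), not in the one shown. The CCAAT box (CCAAT, 33.8%) was found in Myo10 and Tnfaip2, and the hypoxia response element (ACGTG or GCGTG, 38.6%) in Gja1, Myo10, Rhot1, Tnfaip2 and Trak1. The interferon-stimulated response element (GAAANNGAAA, 2.98%), the E-box (CACGTG, 6.02%) and C/EBP (TTNCGCAA, 0.670%) were found in no member's window. The E-box contains the hypoxia element, and a match is only a description of the letters.

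Levels are given as CPM, the count relative to the TMM-scaled size of its library, and were scaled within each table, so levels of BMM and MSC libraries stand on separate scales. Levels of different genes are compared as CPM per kb of exon. Tnfaip2 was the highest member per length in OVX (43.4 ± 8.30 CPM per kb, SD, n = 3), sham (73.4 ± 2.97, n = 2), MSC (23.0 ± 0.799, n = 2) and MSC+RAW-TW (28.2, n = 1). In MSC+RAW-LPS-TW Cd38 was highest, at 109 ± 12.4 CPM per kb (SD, n = 2), followed by Tnfaip2 at 46.4 ± 1.82, Gja1 at 35.4 ± 1.05 and Myo10 at 22.8 ± 0.251, with no overlap between neighbours. In MSC the order was Tnfaip2, Myo10 (13.0 CPM per kb), Gja1 (11.7), Trak2 (8.13), Rhot1 (6.28), Trak1 (5.93), Cd38 (4.69) and Rhot2 (3.38), and only Rhot1 and Trak1 overlapped as neighbours. In MSC+RAW-TW the other 7 members lay between 6.20 CPM per kb for Cd38 and 10.7 for Myo10, and with 1 sample the order of neighbours cannot be weighed against a spread. In OVX Gja1 was second (24.6 CPM per kb), and the other 6 lay between 3.35 for Trak1 and 6.14 for Rhot1, where Rhot1 overlapped Myo10 and Rhot2 overlapped Cd38 and Cd38 overlapped Trak2. In sham Gja1 (24.0 CPM per kb) and Cd38 (10.4) came next, and the 5 members below them, from Rhot2 (5.83) to Trak2 (3.70), each overlapped their neighbour. The 4 Miro and Trak genes had lower means per length than Tnfaip2 and Gja1 in every group.

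**Figure D1:**
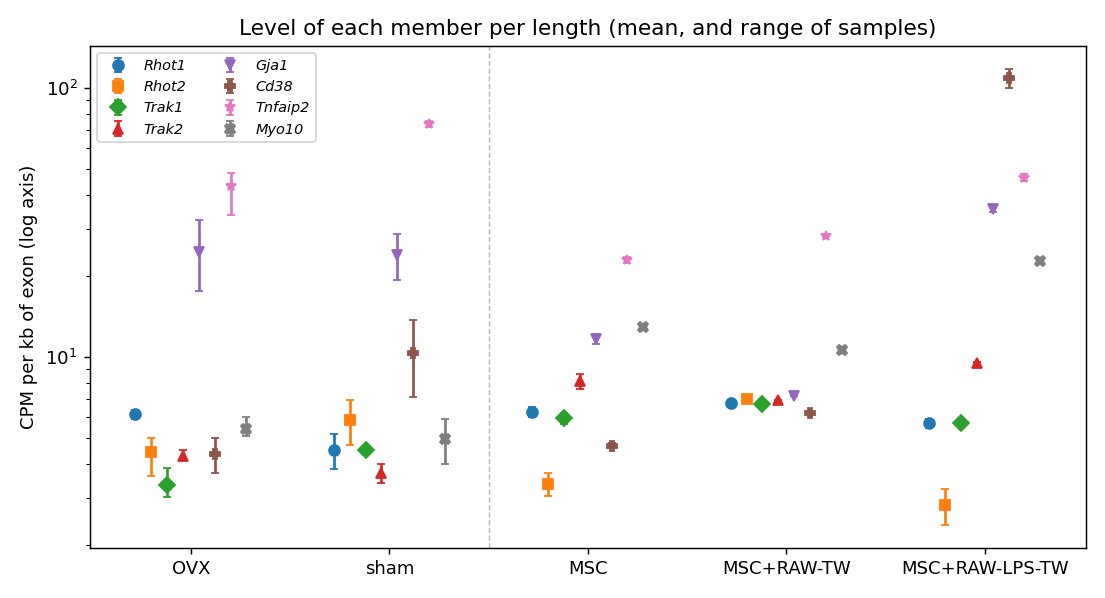
Level of the 8 members per length, in CPM per kb of exon on a log axis, by group. Symbols are means over samples and bars run from the lowest to the highest sample (MSC+RAW-TW is 1 sample). Tnfaip2 is the highest symbol in 4 groups, and Cd38, at 109 CPM per kb, in MSC+RAW-LPS-TW.

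Without correction for GC content, the paralogs of each pair did not keep 1 ratio. Per kb, Rhot1 over Rhot2 was 1.75, 1.24 and 1.25 in OVX replicates 1 to 3 and 1.10, 0.528 and 0.577 in sham replicates 1 to 3, and all OVX values were above all sham values. It was 1.62 and 2.15 in MSC, 2.47 and 1.68 in MSC+RAW-LPS-TW, and 0.972 and 0.959 in MSC+RAW-TW, where alone of the MSC groups the ratio was below 1. Trak1 over Trak2 was 0.670 to 0.934 in OVX and 1.11 to 1.39 in sham. In MSC it was 0.722 and 0.738, in MSC+RAW-TW 1.03 and 0.923, and in MSC+RAW-LPS-TW 0.583 and 0.612. Within each pair the gene of higher GC content (Rhot2 at 55.2% against 43.8% for Rhot1, Trak1 at 56.6% against 47.5% for Trak2) was relatively higher in sham and in MSC+RAW-TW, the groups whose libraries had a positive GC trend. With trends on GC content and length removed from each library, Rhot1 and Rhot2 had log2 fold changes of -0.02 and -0.05 in OVX against sham. Without this they were 0.41 and -0.43. In MSC+RAW-TW against MSC they were 0.72 and 0.70 (0.15 and 1.09 without this). Trak1 and Trak2 were at -0.18 and 0.06 in OVX against sham (-0.48 and 0.18 without this). In MSC+RAW-TW against MSC they were at -0.14 and 0.11 (0.23 and -0.19 without this). The part of GC content alone was not tested.

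**Figure D2:**
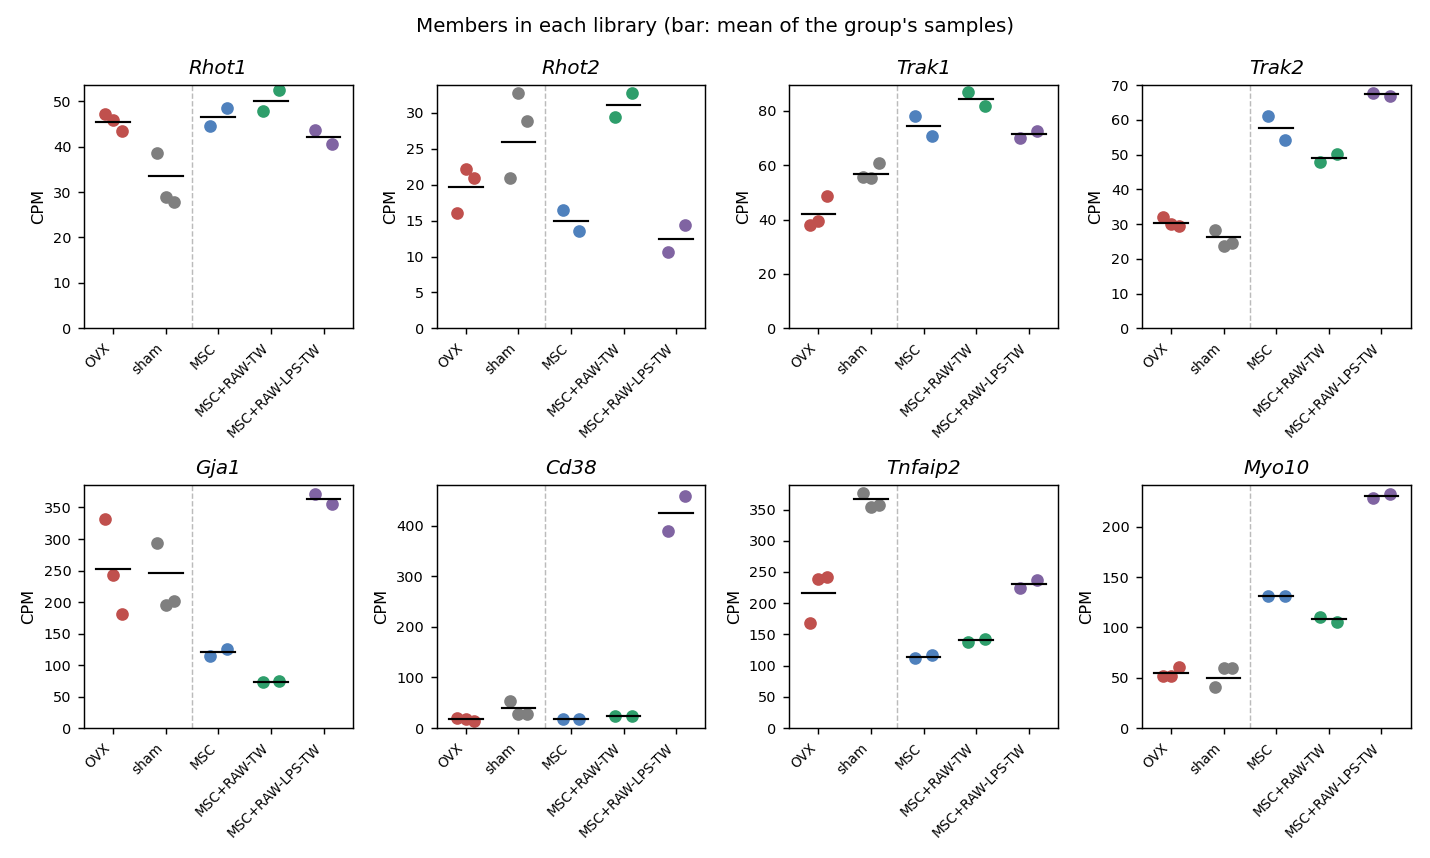
CPM of each member (1 panel a gene, axis from 0) in every library, with a bar at the mean of the group's samples; the dashed line parts BMM from MSC libraries, which were scaled separately. Cd38 in MSC+RAW-LPS-TW, at 390.1 and 458 CPM, stands apart from the other libraries, and Gja1, Tnfaip2 and Myo10 are also higher there than in the other MSC groups.

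The comparison of OVX with sham asks what differed in macrophage cultures from mice that had lost the ovaries. These libraries also held stromal and neutrophil markers, whose sums were higher in OVX. A change within macrophages and a change in which cells the libraries hold cannot be told apart. Cd38 was the member that fell. It was at 19.5, 17.0 and 14.4 CPM in OVX replicates 1 to 3 and at 53.4, 27.2 and 27.9 in sham replicates 1 to 3. All OVX libraries were below all sham libraries, and sham replicate 1 stood far above the other sham libraries. The log2 fold change was -1.28 (SE 0.27, 95% interval -1.91 to -0.65, adjusted p = 0.0221, edgeR). Genes count as called where the fold change reached 2 or more and p, adjusted over all genes tested by Benjamini and Hochberg's method, did not exceed 0.05. By this rule 8.46% of all genes were called, 903 higher and 516 lower in OVX, and 1 of the 8 members, a share near that background. The Cd38 call did not hold without sham replicate 1, where its log2 fold change was -0.77 (adjusted p = 0.0530, edgeR). With trends on GC content and length removed from each library it was -1.93 (adjusted p = 0.00372), still called. It missed the limit on p without OVX replicate 1 (-1.39, adjusted p = 0.0645), 2 (-1.27, 0.0994) or 3 (-1.17, 0.0516).

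Tnfaip2, the nanotube gene, was at 169, 239 and 241 CPM in OVX and at 377, 353 and 358 in sham. Every OVX library was lower than every sham library. Its log2 fold change of -0.80 (SE 0.21, adjusted p = 0.0410) did not reach the fold limit, and with the GC and length trends removed it was -0.40 (adjusted p = 0.193). Gja1 was at 332, 243 and 181 CPM in OVX and 293, 196 and 202 in sham. Its groups overlapped widely, with a log2 fold change of 0.00 and a 95% interval of -0.63 to 0.64. Myo10 was at 51.6, 52.2 and 60.6 CPM in OVX and 40.7, 59.5 and 59.9 in sham, which overlapped too (log2 fold change 0.08, interval -0.43 to 0.59).

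None of the 4 genes of the Miro and Trak machinery was called in BMMs. Rhot1 was at 43.5 to 47.2 CPM in OVX and 27.9 to 38.5 in sham (log2 fold change 0.41, SE 0.19, adjusted p = 0.182), without overlap. Trak1 was at 38.0 to 48.5 CPM in OVX and 55.2 to 60.7 in sham (-0.48, SE 0.19, adjusted p = 0.127), also without overlap. With the GC and length trends removed both values shrank, to -0.02 for Rhot1 and -0.18 for Trak1. Rhot2 had a log2 fold change of -0.43 (SE 0.25, interval -0.99 to 0.13) and Trak2 one of 0.18 (SE 0.18, interval -0.22 to 0.58). With the trends removed Rhot2 came to -0.05 and Trak2 to 0.06. The intervals of all 4 with the trends kept lay within a fold change of 2 in either direction. With all libraries separate and the replicate number as a block, Rhot1 was at 0.49 (adjusted p = 0.0128, edgeR) and Rhot2 at -0.51 (0.0138). Trak1 was at -0.49 (0.00988) and Trak2 at 0.22 (0.181) in that fit. All were under the fold limit, and the near-identical sham libraries counted as separate samples there.

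**Figure D3:**
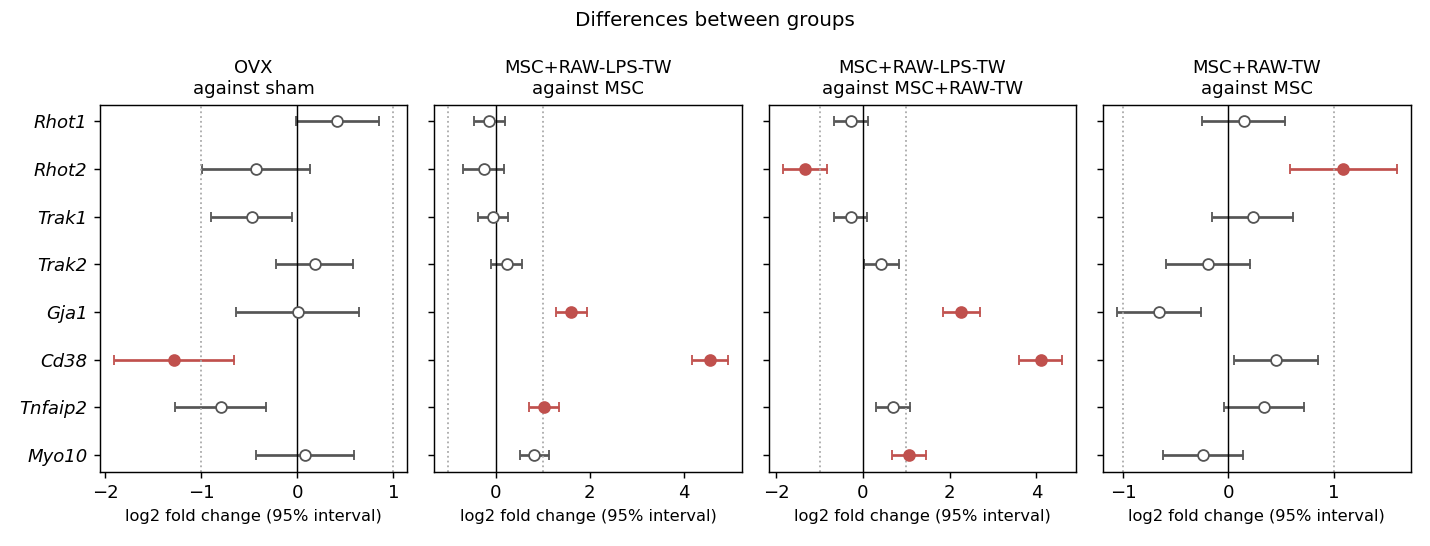
Log2 fold change of each member (points, with 95% intervals as bars) in the 4 comparisons, from the edgeR fits. Filled red points were called, and dotted lines mark a fold change of 2. Cd38 lies at -1.28 in OVX against sham and at 4.55 and 4.10 in the comparisons of MSC+RAW-LPS-TW.

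The comparison of MSC+RAW-LPS-TW with MSC asks what differed in cultures labelled as MSCs that were kept beside lipopolysaccharide-treated macrophages. Given the macrophage markers in these libraries, a change within MSCs and a change in which cells the libraries hold cannot be told apart. Cd38, Gja1 and Tnfaip2 rose. Cd38 was at 17.9 and 18.6 CPM in MSC and at 390.1 and 458 in MSC+RAW-LPS-TW, a fold change of 23.4 (95% interval 18.1 to 30.4, log2 4.55, SE 0.18, adjusted p = 5.15e-11, edgeR). The raw counts behind these values were 632 to 867 and 12977 to 14455, and the groups lay far apart. Across the genes tested, 10.9% were called, 1199 up and 1044 down, while 3 of the 8 members were called, all up. The median log2 fold change was 0.53 over the members and -0.01 over all genes tested.

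Gja1 was at 114 and 125 CPM in MSC and at 371 and 356 in MSC+RAW-LPS-TW, 3.05-fold higher (log2 1.61, SE 0.15, adjusted p = 9.97e-07). Tnfaip2 was at 112 and 117 CPM in MSC and at 225 and 238 in MSC+RAW-LPS-TW. Both libraries were above both MSC libraries, and its log2 fold change of 1.02 (SE 0.15, adjusted p = 8.64e-05) stood just past the fold limit. It was just under the limit without MSC replicate 1 (0.98), without MSC+RAW-LPS-TW replicate b (0.98) and with the GC and length trends removed (0.99). Myo10 was at 131 and 132 CPM in MSC and at 229 and 232 in MSC+RAW-LPS-TW. Its log2 fold change of 0.82 (SE 0.15, adjusted p = 0.000626) did not reach the fold limit.

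The transport genes stayed close together in this comparison. Rhot1 was at 44.5 and 48.5 CPM in MSC and 43.7 and 40.5 in MSC+RAW-LPS-TW, and Rhot2 at 16.5 and 13.5 and at 10.6 and 14.4. Their log2 fold changes were -0.14 (95% interval -0.46 to 0.19) and -0.25 (-0.69 to 0.18). Trak1 had -0.05 (-0.37 to 0.26) and Trak2 0.23 (-0.09 to 0.55). For all 4 genes these intervals lay within a fold change of 2 in either direction. They rest on 2 libraries a group, whose spread may be technical, so a larger change between animals or cultures is not excluded. Over the same libraries, 12 of the 18 macrophage markers were lower in both MSC+RAW-LPS-TW libraries than in both MSC libraries. Another 5, Adgre1 and Ptprc among them, were higher. Of the 16 stromal markers 10 were higher and 3 lower, the latter including Cxcl12 (179.7 to 209 against 332 to 354 CPM). Such lack of overlap is a looser rule than a call. Its share over all genes is not given here, so these counts cannot be weighed against it.

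MSC+RAW-LPS-TW was also set against MSC+RAW-TW, groups that by their labels differ in the lipopolysaccharide treatment of the macrophages. Their marker content differed too. Of the 18 macrophage markers 13 were lower in both MSC+RAW-LPS-TW libraries than in both MSC+RAW-TW libraries and 5 higher. Of the 16 stromal markers 10 were higher and 5 lower. A change within MSCs and a change in cell content cannot be told apart here either. The 3 MSC comparisons share libraries and are not independent. Cd38 was at 24.5 and 23.7 CPM in MSC+RAW-TW and its log2 fold change was 4.10 (SE 0.23, adjusted p = 5.25e-09, 17.1-fold). Gja1, at 72.6 and 75.0 CPM in MSC+RAW-TW, had 2.27 (SE 0.20, adjusted p = 7.01e-07). Myo10, at 111 and 105 CPM there, had 1.06 (SE 0.19, adjusted p = 0.000342). These 3 members rose and Rhot2 fell, from 29.5 and 32.7 CPM in MSC+RAW-TW to 10.6 and 14.4 in MSC+RAW-LPS-TW (log2 fold change -1.34, SE 0.24, adjusted p = 0.000372). Calls were common in this comparison, at 27.4% of all genes (3166 higher, 2458 lower), beside 4 of the 8 members.

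Tnfaip2, at 138 and 142 CPM in MSC+RAW-TW, had a log2 fold change of 0.69 (SE 0.18, adjusted p = 0.00741), under the fold limit. Rhot1 had -0.28 (SE 0.19, adjusted p = 0.238), Trak1 -0.28 (SE 0.18, adjusted p = 0.218) and Trak2 0.43 (SE 0.19, adjusted p = 0.0804). The GC trends of these groups had opposite signs. With GC and length trends removed, Cd38 was at 3.37, Gja1 at 1.46 and Myo10 at 1.23, all still called. In the same fit Rhot2 lost its call at -0.94 (adjusted p = 0.00510), Rhot1 came to -0.90 (adjusted p = 0.00106), and Tnfaip2 was called at 1.16 (adjusted p = 0.000231).

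Untreated macrophages across the membrane were tested by MSC+RAW-TW against MSC, where Rhot2 was called higher. It was at 16.5 and 13.5 CPM in MSC and 29.5 and 32.7 in MSC+RAW-TW (log2 fold change 1.09, SE 0.24, adjusted p = 0.00349). Its value was 0.96 without MSC replicate 2, 0.98 without MSC+RAW-TW replicate b and 0.70 (adjusted p = 0.0410) with GC and length trends removed, all under the fold limit. It was the 1 member called of 8, where 16.4% of all genes were (1394 higher, 1966 lower). Of the 18 macrophage markers 10 were higher in both MSC+RAW-TW libraries than in both MSC libraries and 7 lower. Of the 16 stromal markers 2 were higher and 11 lower, so the limit on cell content holds for this comparison too.

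Gja1 was lower in MSC+RAW-TW, with both libraries below both MSC libraries, but its log2 fold change of -0.66 (SE 0.19, adjusted p = 0.0158) was under the fold limit and came to 0.06 with the GC and length trends removed. Cd38 had a log2 fold change of 0.45 (SE 0.19, adjusted p = 0.0835), and came to 1.14 (adjusted p = 0.00179) with the trends removed, past the limits. Tnfaip2 had 0.34 (SE 0.18), Trak1 0.23 (SE 0.18), Rhot1 0.15 (SE 0.19), Trak2 -0.19 (SE 0.19) and Myo10 -0.24 (SE 0.18), all with an adjusted p of 0.162 or more.

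**Figure D4:**
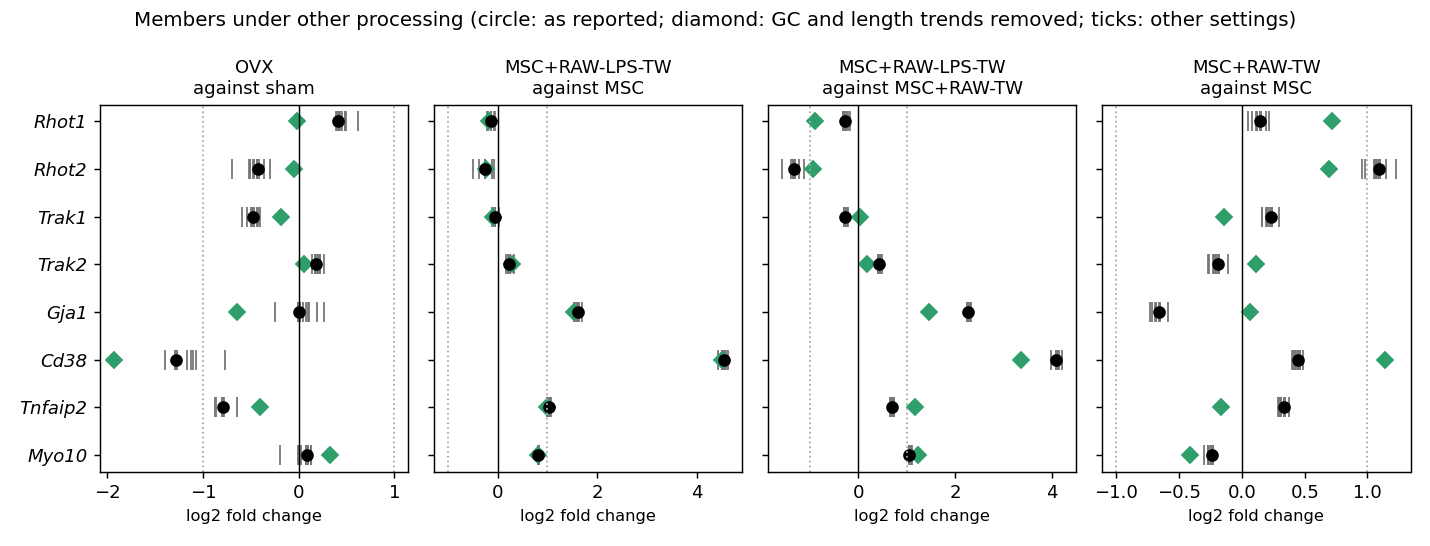
Log2 fold change of each member under other processing: black circles as reported, green diamonds with trends on GC content and length removed, grey ticks for the other settings (other scaling, DESeq2, no filter, separate libraries, blocks, and each library left out). For Cd38, Gja1 and Myo10 in MSC+RAW-LPS-TW all marks lie above 0, while in MSC+RAW-TW against MSC the diamonds move away from the circles.

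Partner genes of the members were followed in 5 lists, described by counts and medians. The share called over all genes was 8.46% in OVX against sham, 10.9% and 27.4% for MSC+RAW-LPS-TW against MSC and MSC+RAW-TW, and 16.4% in MSC+RAW-TW against MSC, and the counts below stand beside these shares. The motors and anchors of mitochondria held 19 genes, 18 of them tested, and Dync1h1, the heavy chain of cytoplasmic dynein, had the most counts of them in the MSC libraries and was not called there. In OVX against sham 2 were called higher and 0 lower, with a list median of 0.31 against -0.01 over all genes. These were Armcx1, a mitochondrial protein that binds Miro (11.2 CPM in OVX and 4.33 in sham, log2 1.33, SE 0.28), and Kif5b, a kinesin heavy chain with the most counts of the list in BMMs (251 and 114 CPM, log2 1.10, SE 0.19). For MSC+RAW-LPS-TW and MSC, 1 was called higher and 2 lower (median 0.32 against -0.01). Mgarp, a mitochondrial protein that binds Trak adaptors, rose from 2.68 to 15.9 CPM (log2 2.59, SE 0.32). The kinesin genes Kif5a (7.07 to 2.95 CPM, log2 -1.25) and Klc4 (39.9 to 19.4 CPM, log2 -1.03) fell, and Klc4 was at -0.81 without MSC+RAW-LPS-TW replicate a.

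Against MSC+RAW-TW, 3 motor and anchor genes were called higher and 3 lower of 18 in MSC+RAW-LPS-TW, where 27.4% of all genes were called (median 0.29 against 0.14). The largest were Mgarp (log2 3.84, SE 0.45), Klc4 (-1.95, SE 0.21), Kif5a (-1.86, SE 0.29) and Mtx2 of the outer-membrane import machinery (1.69, SE 0.26). For MSC+RAW-TW and MSC, 1 was called higher and 2 lower (median 0.00 against -0.13). Mtx1 was at 77.8 CPM against 32.4 in MSC (log2 1.31, SE 0.21), Mgarp at 1.08 against 2.68 (-1.25, SE 0.41) and Mtx2 at 5.88 against 13.9 (-1.19, SE 0.25). With GC and length trends removed, Armcx1 (0.91), Kif5b (0.41) and, in MSC+RAW-TW against MSC, Mtx1 (0.55), Mtx2 (-0.70) and Mgarp (-1.26, adjusted p = 0.0508) lost their calls. Without MSC replicate 2, Mgarp was at -0.68 in that comparison. Armcx1 missed the limit without OVX replicate 1 (1.12, adjusted p = 0.0651) or 2 (1.36, 0.0893), and Kif5b without OVX replicate 2 (1.14, 0.0623) or sham replicate 1 (0.95).

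The exocyst and its nanotube and filopodium partners were 19 genes, all tested, with Cdc42, a small GTPase that organises actin, highest in mean counts and not called in any comparison. Of these, 1 was called higher and 2 lower in OVX (median 0.01 against -0.01). Lst1, a nanotube protein that recruits Ral to the membrane, fell from 557 to 178 CPM (log2 -1.69, SE 0.23, adjusted p = 0.00661). Vasp, an actin polymerase, fell from 551 to 280 CPM (-1.02, SE 0.22), and Exoc5, an exocyst subunit, rose from 24.5 to 59.0 CPM (1.24, SE 0.27). Lst1 kept its call with the GC and length trends removed, while Vasp (-0.58) and Exoc5 (0.17) did not. Vasp and Exoc5 also missed it without OVX replicate 1 (-0.93 and 1.02) or 2 (-1.02 and 1.33), with adjusted p between 0.0652 and 0.105, and Vasp fell just short of the fold limit without sham replicate 3 (-0.9996).

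In MSC+RAW-LPS-TW against MSC 2 of these 19 were called higher and 1 lower (median 0.07 against -0.01). Eps8, an actin-capping protein of filopodia and microvilli, fell from 37.8 to 4.86 CPM (log2 -2.95, SE 0.20, adjusted p = 1.84e-08). Vasp rose from 260 to 630 CPM (1.29, SE 0.15) and its relative Enah from 73.3 to 165 CPM (1.18, SE 0.15). Against MSC+RAW-TW 3 of 19 were called higher and 2 lower, a share near the 27.4% of all genes (median -0.08 against 0.14), among them Eps8 (-2.36, SE 0.22), the formin Diaph2 (1.60, SE 0.23), Enah (1.32, SE 0.19) and Exoc2 (1.25, SE 0.21). With GC and length trends removed Eps8 kept its call and Diaph2 (0.68), Enah (0.68) and Exoc2 (0.81) did not. Between MSC+RAW-TW and MSC, 2 were called higher and 0 lower (median 0.03 against -0.13): Lst1 (612 against 215 CPM, log2 1.56, SE 0.24) and Vasp (537 against 260 CPM, 1.09, SE 0.18), which was at 0.51 with the trends removed.

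Of 22 other connexins and pannexins, 8 were tested in BMMs and 7 in MSC libraries. Among the 8, edgeR called 0 in OVX (median 0.10 against -0.01), and Panx1, a subunit of ATP-releasing channels with the most counts of the list, had a log2 fold change of -0.56 (SE 0.17, adjusted p = 0.0642). DESeq2 called 1 of them, and 2, Panx1 and Gja5, had an unadjusted p under 0.05 in edgeR. Gja5, named here after its value was seen, had a log2 fold change of 1.23 (adjusted p = 0.0544). In MSC+RAW-LPS-TW against MSC 3 were called higher and 1 lower (median 1.45 against -0.01). Among them the connexins Gja4 (0.895 to 8.53 CPM, log2 3.26, SE 0.33) and Gjb5 (2.77 to 9.76 CPM, 1.83, SE 0.26) rose from low levels. Panx1 fell from 17.1 to 6.54 CPM (-1.38, SE 0.21). Against MSC+RAW-TW 5 were called higher and 1 lower (median 1.25 against 0.14), among them Gja4 (3.35, SE 0.44) and Panx1 (-1.82, SE 0.24). In MSC+RAW-TW against MSC 1 was called higher and 0 lower (median 0.44 against -0.13), and Panx1 had a log2 fold change of 0.44 (SE 0.24, adjusted p = 0.182).

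The list of NAD synthesis and use held 15 genes, all tested, with the NAD kinase gene Nadk highest in mean counts. In OVX 1 was called, the NAD-dependent deacetylase gene Sirt1 (10.6 and 5.11 CPM, log2 1.01, SE 0.24, adjusted p = 0.0313), and 0 were called lower (median -0.21 against -0.01). Sirt1 lost this call with the trends removed (0.59), without OVX replicate 1 (0.93) or 2 (1.00, adjusted p = 0.129), without sham replicate 1 (0.87) or 3 (0.99) and with all libraries kept separate (0.97). In MSC+RAW-LPS-TW against MSC 1 was called (median -0.13 against -0.01): Bst1, the closest relative of Cd38 among NAD ectoenzymes, rose from 69.9 to 203 CPM (1.54, SE 0.15, adjusted p = 1.32e-06). Against MSC+RAW-TW 5 were called higher and 4 lower (median 0.01 against 0.14). Nampt, which makes the precursor of NAD in the salvage route, was at 117 against 25.1 CPM (2.19, SE 0.23), Sirt1 at 5.39 against 1.48 (1.81, SE 0.44) and Bst1 at 203 against 57.4 (1.78, SE 0.19). Sarm1, a NAD hydrolase, was at 0 in 1 MSC+RAW-LPS-TW library and at a mean of 0.180 against 1.49 CPM (-3.04, SE 1.05, adjusted p = 0.0307), a call that DESeq2 did not make (adjusted p = 0.0620) and that was lost with the trends removed (adjusted p = 0.0875). In MSC+RAW-TW against MSC 2 were called higher and 2 lower (median -0.24 against -0.13). Sirt1 (-2.32, SE 0.44) and Nampt (-1.33, SE 0.22, -0.54 with the trends removed) fell, and Nadsyn1 (1.23, SE 0.27, 0.98 with the trends removed) and Nmnat1 (1.03, SE 0.26) rose. Nmnat1 was at 0.98 without MSC replicate 1, at 0.96 without MSC+RAW-TW replicate a and at 1.00 without MSC+RAW-LPS-TW replicate a.

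Dynamin and clathrin genes, which serve uptake, were 12, all tested, with Clta, a clathrin light chain, highest in mean counts. In OVX 1 was called lower and 0 higher (median -0.53 against -0.01): Ap2s1 of the clathrin adaptor fell from 363 to 158 CPM (log2 -1.24, SE 0.24, adjusted p = 0.0152), and was at -0.84 with the trends removed and, without OVX replicate 1 or 2, at an adjusted p of 0.0612 or 0.0584. In MSC+RAW-LPS-TW against MSC 1 was called lower (median -0.20 against -0.01), Clta, from 967 to 403 CPM (-1.25, SE 0.20), which was at -0.95 without MSC+RAW-LPS-TW replicate a. Against MSC+RAW-TW 1 was called higher and 5 lower (median -0.45 against 0.14): Picalm, a clathrin assembly protein (1.71, SE 0.21, 0.88 with the trends removed), and among the lower ones Clta (-2.52, SE 0.24), Cltb (-1.59, SE 0.17) and Ap2m1 (-1.37, SE 0.19). Set against MSC, 2 were called higher and 1 lower in MSC+RAW-TW (median 0.52 against -0.13). Clta was at 2262 against 967 CPM (1.27, SE 0.24, 0.93 with the trends removed), Ap2m1 at 960 against 462 (1.10, SE 0.19, 0.94 without MSC replicate 2) and Cltc at 274 against 602 (-1.09, SE 0.20, -0.50 with the trends removed).

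**Figure D5:**
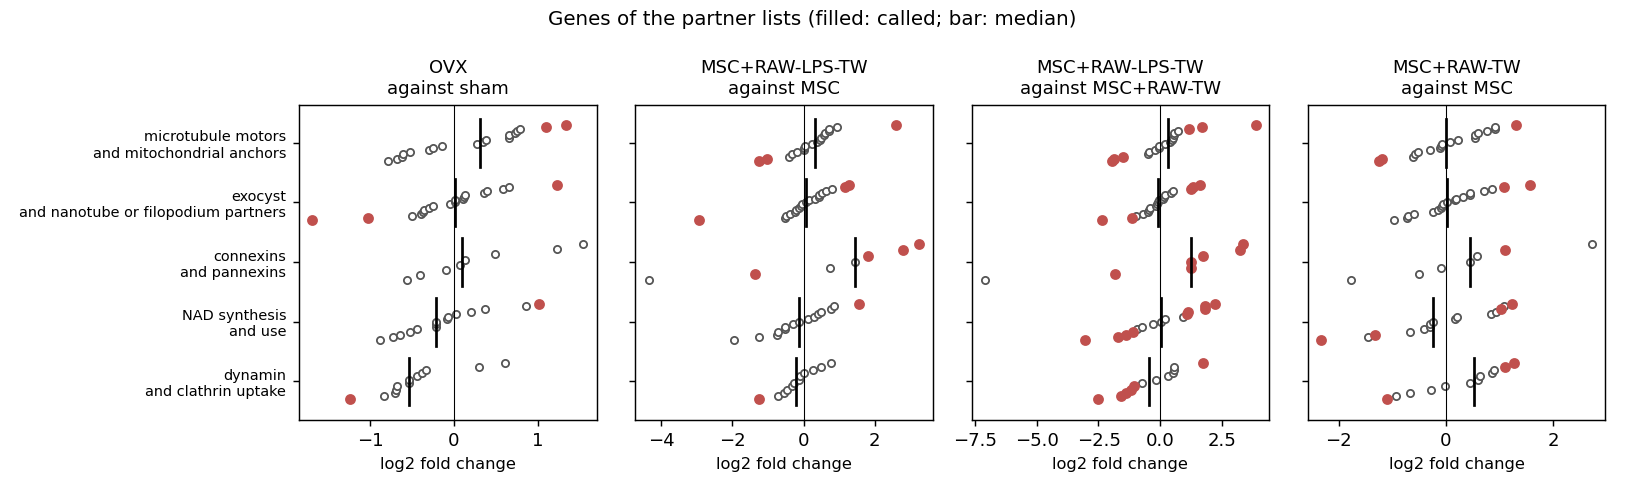
Log2 fold change of every tested gene in the 5 partner lists (rows) in the 4 comparisons (panels, each with its own axis). Filled red points were called and bars mark list medians. The connexins and pannexins have medians of 1.45 and 1.25 in the comparisons of MSC+RAW-LPS-TW, and the dynamin and clathrin genes a median of -0.53 in OVX against sham.

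The genes whose pattern was most like each member were taken over the 10 samples of both experiments, among the 10592 genes averaging 5 CPM or more. For this the samples of both tables were scaled together, and they differ in cell source, depth and GC trend, which all genes of a library share, so the correlations are a description. For Cd38 they were Csf3, which encodes granulocyte colony-stimulating factor (Pearson's r = 0.981), and Nos2, inducible nitric oxide synthase (0.980). Gja1 was most like Vcam1, a vascular adhesion molecule (0.987), and Ak4, a mitochondrial adenylate kinase (0.983). Myo10 was nearest to Dst, a cytoskeletal linker (0.992), and Spaca6 (0.990). Tnfaip2 was nearest to Slc39a13, a zinc transporter (0.991), and Repin1 (0.982). Trak2 was nearest to Prr14l (0.986) and Naa25 (0.986), Trak1 to Pwp2 and Klhl18 (both 0.975), and Rhot2 to Mcrip2 (0.985) and Gm15417 (0.981). Rhot1 had the weakest likeness, with Mcts2 (0.956) and Rars2 (0.907).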

How the data were processed

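According to the study's methods and processing notes, the authors made directional poly(A) libraries, sequenced them as 150-bp read pairs, trimmed them with Trim Galore 0.6.7, aligned them to GRCm38 with HISAT2 2.1.0 and counted reads on Ensembl genes with featureCounts 2.0.1. Each deposited table holds whole-number counts of reads on each gene, without scaling or a filter; the strand setting and the counting of pairs are not stated. Even counts made up 60.0% to 71.4% of counts from 1 to 20, so counts are not single molecules. Gene names matched 55141 of 55487 identifiers.

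The 8 members, the lists and the tests were chosen with earlier results of these data known. edgeR 4.0.16 in R 4.3.3 was used with TMM scaling, filterByExpr and the two-sided quasi-likelihood test, and p was adjusted by Benjamini and Hochberg over all genes. BMM and MSC libraries were fitted separately, each as 5 samples, with 3 and 2 residual degrees of freedom. The SE is the log2 fold change over the root of F. Near-identical libraries (chi-square ratio at high counts under 2 times that at low counts) were summed. Named are all members, the called genes of a list up to 4 a comparison, its highest gene, and the 2 genes most like each member (log2 CPM, prior count 2). Some genes that this rule names are not reported here. Correlations of deviations between OVX and sham libraries of the same number were 0.409, -0.0261 and 0.353, and those of other numbers were -0.482 to 0.304. Sham replicates 2 and 3 are near-identical, so these values do not settle whether the numbers pair the libraries. Alternatives were RLE scaling, DESeq2 1.42.0, no filter, separate libraries, a block for the replicate number, leaving out each library, only the compared groups, and lowess trends (span 0.3) on GC content and length removed; the header series as a block was chosen after seeing the data. Promoters came from RefSeq (GRCm38.p6), where all 8 members matched.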

Additional observations from a re-analysis of the deposited data

How the results depend on the processing

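Among 416 alternative values of member log2 fold changes, 390 kept direction and side of the limits, 11 lost a call, 2 gained one and 13 changed sign. Cd38, Gja1 and Myo10 in MSC+RAW-LPS-TW versus MSC+RAW-TW, and Cd38 and Gja1 against MSC, kept their calls under every alternative run. No sign change concerned a called value. In OVX against sham, Gja1 (0.00) was at -0.0046 with RLE and with DESeq2 and at -0.64 with GC and length trends removed, Myo10 at -0.0036 with separate libraries, and Rhot1 at -0.022 and Cdc42 at -0.51 with the trends removed. Leaving out 1 library gave -0.25 to 0.27 for Gja1, -0.19 to 0.13 for Myo10 and -0.16 to 0.39 for Cdc42. With the trends removed, Trak1 was at 0.038 and Cdc42 at -0.45 in MSC+RAW-LPS-TW versus MSC+RAW-TW, and Trak1 at -0.14, Trak2 at 0.11, Gja1 at 0.062, Tnfaip2 at -0.17 and Cdc42 at 0.50 in MSC+RAW-TW against MSC. Leaving out 1 library gave -0.12 to 0.014 for Trak1 and -0.066 to 0.18 for Cdc42 in MSC+RAW-LPS-TW against MSC, and -0.17 to 0.022 for Dync1h1 and -0.15 to 0.023 for Cdc42 in MSC+RAW-TW against MSC.

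Genes called in OVX against sham numbered 1419, 590 with the trends removed, and 309 (without OVX replicate 2) to 2390 (without sham replicate 1) with 1 library left out; in MSC+RAW-TW against MSC they numbered 3360 and 2165 with the trends removed. Members called ranged from 0 to 1 in OVX against sham, 2 to 3 in MSC+RAW-LPS-TW against MSC and 0 to 1 in MSC+RAW-TW against MSC with 1 library left out; with the trends removed the last was 1, then Cd38 in place of Rhot2. Both kinds of block were fitted with all libraries separate. In BMMs, separate libraries gave 1818 called genes without a block and 2117 with the replicate number as a block, and Cd38 was the 1 member called in both (-1.12 and -1.07); connexins and pannexins had 1 call and NAD genes 0 in both. For the MSC comparisons, no paired analysis by replicate number was possible because the headers of the MSC+RAW-TW and MSC+RAW-LPS-TW libraries do not carry the labels' numbers; the header series was used as a block instead. In OVX against sham, connexins and pannexins had 1 call in place of 0 with DESeq2, no filter, separate libraries or the trends removed, and NAD genes 0 in place of 1 with separate libraries, with or without the header series as a block. With the trends removed there, calls were 0 for motors and anchors, 1 for exocyst and nanotube genes and 0 for uptake genes. In MSC+RAW-TW against MSC they were 0 for motors and anchors, 1 for exocyst and nanotube genes, 0 for connexins and pannexins, 2 for NAD genes and 1 for uptake genes, and in MSC+RAW-LPS-TW versus MSC+RAW-TW 2 for exocyst and nanotube genes and 3 for uptake genes. NAD genes called in MSC+RAW-LPS-TW against MSC were 2 with no filter or with separate libraries and the header series as a block (1 without that block), and connexins and pannexins in MSC+RAW-TW against MSC were 2 with separate libraries, with or without that block. With 1 library left out, list calls in OVX against sham ranged from 0 to 3 for motors and anchors, 1 to 3 for exocyst and nanotube genes, and 0 to 1 for each other list; in MSC+RAW-LPS-TW against MSC from 1 to 5 for NAD genes and 0 to 1 for uptake genes; and in MSC+RAW-TW against MSC from 0 to 2 for connexins and pannexins. The cause of these changes was not tested. With 1 to 3 samples a group, fold changes near the limit of 2 cannot be placed on either side of it.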
